A study of Mus musculus with 36 samples.

Results

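The genes of the mouse vomeronasal receptors were examined as a group of genomic loci. Members were the autosomal protein-coding genes of the mm10 GENCODE annotation whose symbols begin with Vmn1r or Vmn2r, each taken as the gene body with 2 kb on either side. The rule gave 329 loci of 20807 autosomal protein-coding loci, of which 208 were Vmn1r and 121 were Vmn2r genes. Vmn2r-ps159 and Vmn2r-ps130 carry pseudogene-like symbols but are annotated as protein-coding, and they were kept. Genes under 200 kb apart were joined into clusters, which gave 47 clusters on 11 chromosomes, 20 of them on chromosome 7, where 154 of the members lie. The 13 clusters of at least 10 genes held 215 of the members, and 11 members stood alone.

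Vomeronasal receptors are the pheromone receptors of the vomeronasal organ, a chemosensory organ at the base of the nasal septum. Vmn1r genes encode receptors with short extracellular ends that signal through Gnai2, while Vmn2r genes encode receptors with a long extracellular ligand-binding end that signal through Gnao1. Each sensory neuron expresses very few of these genes, and they are not known as genes of the hippocampus. The marks measured here belong to opposed systems of chromatin. H3K27me3, laid down by the Polycomb complex PRC2, and H2AK119ub1, laid down by PRC1, are found at silent genes, most densely at CpG-rich promoters, whereas H3K36me2 covers wide stretches of active and intergenic chromatin. KDM2B is a subunit of a variant PRC1 that binds unmethylated CpG through its CxxC zinc finger, and it is also a demethylase of H3K36me2.

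The 24 ChIP-seq libraries covered the 3 marks in hippocampus and in neurospheres, each mark and source being represented by 2 libraries of Ctrl and 2 of cKO, and 12 further input samples had no file of islands. Hippocampi were taken at postnatal day 0, and neurospheres were grown from hippocampal progenitor cells of that age with FGF2 and EGF. Ctrl animals were labelled Kdm2bfl/+ or Kdm2bfl/fl, so both kinds of floxed animal share 1 group, and cKO animals were labelled Kdm2bEmx1-delta-CxxC, in which Emx1-Cre removes the exon of the CxxC zinc finger in cells of the Emx1 lineage, while other cells of the tissue keep it. The labels do not say whether the 2 libraries of a group came from separate animals, so p-values measure only the spread between these libraries, which may be technical. In tissue libraries, fewer cells carrying a mark and less of the mark per cell cannot be told apart.

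Each library was deposited as a list of islands, which are stretches of enrichment over input called by SICER, with a count of reads for each. The covered share is the percentage of a locus, or of the union of loci of a family, that lies inside islands, and differences between shares are in percentage points. Outside islands the number of reads is unknown, so a share of 0 means that no island was called, not that the mark was absent. Autosomal islands held between 986907 and 21946455 reads per library and covered between 1.56% and 20.7% of the autosomes. As a check of the mark labels, the Hox loci, a classical Polycomb target, were covered to at least 99.2% in the 8 H3K27me3 libraries, to between 51.3% and 99.8% in the 8 H2AK119ub1 libraries, and to 0% in the 8 H3K36me2 libraries. The island lists cannot show the deletion in Kdm2b or the cell type of a source, so neither was checked.

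Because the deleted domain binds CpG, the 300 bases from 250 before to 50 after the annotated start are shown for 4 members, with every CpG, which reads the same on both strands, in capitals. The first is the Vmn1r gene, and the second the Vmn2r gene, whose start lay inside an island in the most libraries. The third and the fourth are a Vmn1r and a Vmn2r gene of large clusters whose starts lay in no island. All are GRCm38.p6 sequence, the RefSeq copy of the mm10 build, read 5′ to 3′ along the gene.
Vmn1r40 (chr6:89707290-89707589, plus strand): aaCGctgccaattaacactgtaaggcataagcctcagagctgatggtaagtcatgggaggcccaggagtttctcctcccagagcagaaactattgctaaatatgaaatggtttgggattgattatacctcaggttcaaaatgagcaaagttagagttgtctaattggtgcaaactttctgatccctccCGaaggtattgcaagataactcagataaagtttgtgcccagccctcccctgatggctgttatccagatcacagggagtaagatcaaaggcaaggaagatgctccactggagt
Vmn2r-ps159 (chr4:156330853-156331152, plus strand): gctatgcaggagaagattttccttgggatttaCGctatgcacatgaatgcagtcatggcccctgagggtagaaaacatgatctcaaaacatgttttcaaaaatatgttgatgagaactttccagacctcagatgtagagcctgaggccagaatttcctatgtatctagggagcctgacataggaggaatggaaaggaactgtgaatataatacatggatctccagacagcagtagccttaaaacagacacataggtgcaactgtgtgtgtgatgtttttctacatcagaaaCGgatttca
Vmn1r188 (chr13:22084190-22084489, plus strand): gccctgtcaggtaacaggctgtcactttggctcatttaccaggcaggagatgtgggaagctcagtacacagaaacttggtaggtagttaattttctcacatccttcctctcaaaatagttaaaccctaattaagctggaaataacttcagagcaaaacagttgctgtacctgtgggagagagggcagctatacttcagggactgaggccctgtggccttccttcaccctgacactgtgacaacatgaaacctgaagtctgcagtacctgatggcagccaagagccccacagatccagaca
Vmn2r53 (chr7:12608739-12609038, minus strand): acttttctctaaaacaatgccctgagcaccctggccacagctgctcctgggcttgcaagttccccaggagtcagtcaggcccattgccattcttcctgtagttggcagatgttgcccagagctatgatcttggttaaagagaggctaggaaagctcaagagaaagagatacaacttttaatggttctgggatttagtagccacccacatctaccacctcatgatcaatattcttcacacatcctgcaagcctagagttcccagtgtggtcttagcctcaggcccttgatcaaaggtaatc

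The 2 starts that lay in islands each held 2 CpG, and the 2 that did not held 0. The start of Vmn1r40 lay inside an H3K27me3 island in 4 of 4 neurosphere and 1 of 4 hippocampus libraries, and that of Vmn2r-ps159 in 3 of 4 hippocampus and 0 of 4 neurosphere libraries. Over all members the windows were poor in CpG. The median was 1 CpG per window in the 208 Vmn1r and 1 in the 121 Vmn2r genes, against 12 in all 20807 autosomal protein-coding genes, 16 in the 39 Hox genes and 1 in the 1128 olfactory receptor (Olfr) genes. No CpG at all was found in 30.8% of the Vmn1r and 33.9% of the Vmn2r windows, against 5.13% of all windows. Vmn1r4 was the only member window with at least 10 CpG, and it held 42. In all genes 54.5% of windows had at least 10. Members with an island over the window in any library (35) and members with none (294) had the same median of 1 CpG. In the RefSeq table of promoters, which matched 298 members and often places the start elsewhere, the median was also 1 in both families. The most CpG in a matched window there was 6 in Vmn1r and 4 in Vmn2r, so none had at least 10.

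The members differed from one another in length and in how far reads can be placed in them. A Vmn1r gene had a median length of 6.80 kb and a Vmn2r gene of 27.1 kb, and the united loci spanned 2.35 Mb and 4.16 Mb. Of the 150-base words sampled in the loci, 88.8% in Vmn1r and 84.6% in Vmn2r occurred once in the genome, against 97.5% in Olfr loci and 97.5% in all other protein-coding loci. The median gene reached 98.1% in Vmn1r and 96.7% in Vmn2r, while 63 Vmn1r and 39 Vmn2r genes were under 90%, of which 25 and 3 were under 10%. How the authors treated reads that map to several places is not given in the sources used here. Repeat-masked sequence took 36.6% of Vmn1r and 44.8% of Vmn2r loci, against 26.8% of the other loci.

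Most vomeronasal receptor loci carried no island of any mark. Across the 24 libraries 209 of the 329 members, 139 Vmn1r and 70 Vmn2r, were without one (63.5%, against 10.99% of all protein-coding loci). H3K27me3 islands reached 113 members in at least 1 library (34.3%, against 59.3% of all loci), H3K36me2 islands reached 17 (5.17%, against 75.1%), and H2AK119ub1 islands reached 4 (1.22%, against 68.5%). The 4 members with H2AK119ub1 were all among the 113 with H3K27me3, and 10 of the 17 with H3K36me2 were. In hippocampus 69 members (21.0%) had an H3K27me3 island in at least 1 of 4 libraries, against 42.8% of all protein-coding loci, and 1 member (0.304%) had one in all 4, against 13.0%. In neurospheres 73 members (22.2%) had one in at least 1 library, against 51.7%, and 13 (3.95%) in all 4, against 24.4%.

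**Figure D1:**
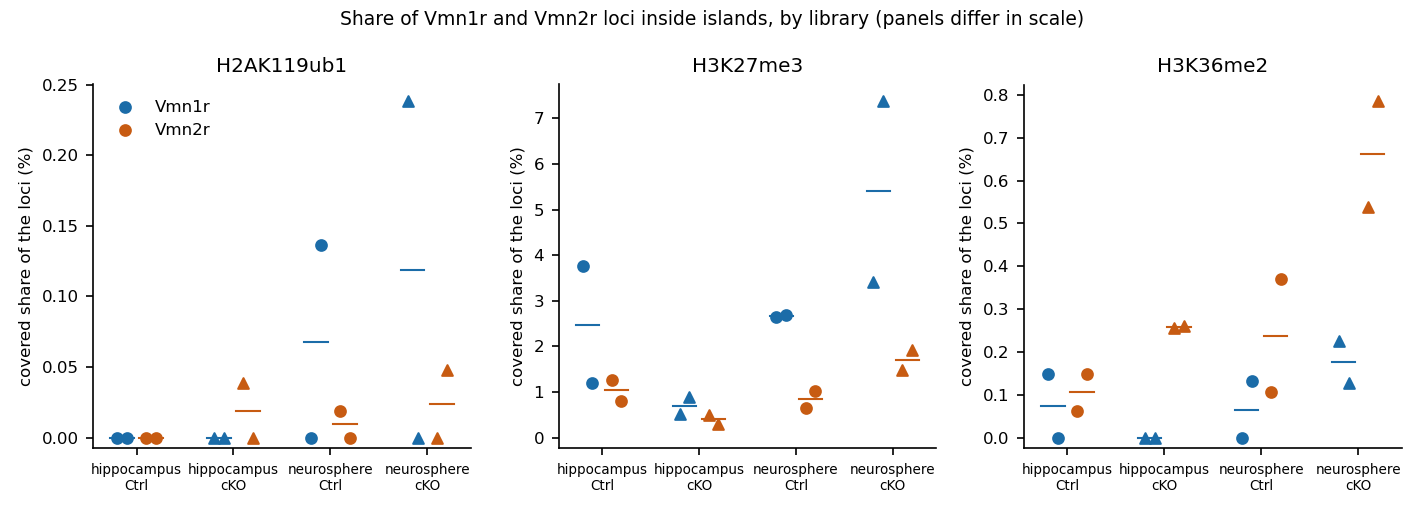
Covered share of the united Vmn1r loci (blue) and Vmn2r loci (orange) in percent, for each library by source and genotype, with circles for Ctrl, triangles for cKO and a line at the mean of 2 libraries; the scale differs between panels. H3K27me3 shares run from 0.297% to 7.39%, while H2AK119ub1 stays at or below 0.238% and H3K36me2 at or below 0.785%.

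Set against the autosomes, the loci were covered less by all 3 marks, and the shortfall was smallest for H3K27me3. The ratio of the covered share of Vmn1r loci to that of the autosomes was 0.371 ± 0.242 (SD, n = 8 libraries) for H3K27me3, 0.00761 ± 0.0141 for H2AK119ub1 and 0.00614 ± 0.00791 for H3K36me2. For Vmn2r loci it was 0.1505 ± 0.104, 0.00373 ± 0.00857 and 0.0284 ± 0.0160. No library reached a ratio of 1, and the highest was 0.733, for Vmn1r and H3K27me3 in Ctrl replicate 1 of hippocampus. H3K27me3 exceeded H2AK119ub1 by 0.363 in Vmn1r and 0.147 in Vmn2r, and exceeded H3K36me2 by 0.364 and 0.122 (exact permutation tests within source, 2-sided, adjusted p = 0.000612 for each of the 4, over 6 tests). H3K36me2 exceeded H2AK119ub1 in Vmn2r by 0.0246 (exact permutation, adjusted p = 0.00294) and not in Vmn1r, where the difference was -0.00147 (exact permutation, adjusted p = 0.886). Within hippocampus alone the Vmn2r difference was 0.0237 and no longer passed. The authors' ChIP method splits each lysate between input and the 3 marks. Libraries of different marks may thus share chromatin, while these tests treat them as independent. In hippocampus, however, the labels list separate inputs for H3K36me2. Comparisons with that mark may there include a difference of input or preparation, which was not tested. Among the loci whose words were at least 90% unique, the H3K27me3 excess over H2AK119ub1 was 0.345 for Vmn1r and 0.152 for Vmn2r.

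**Figure D2:**
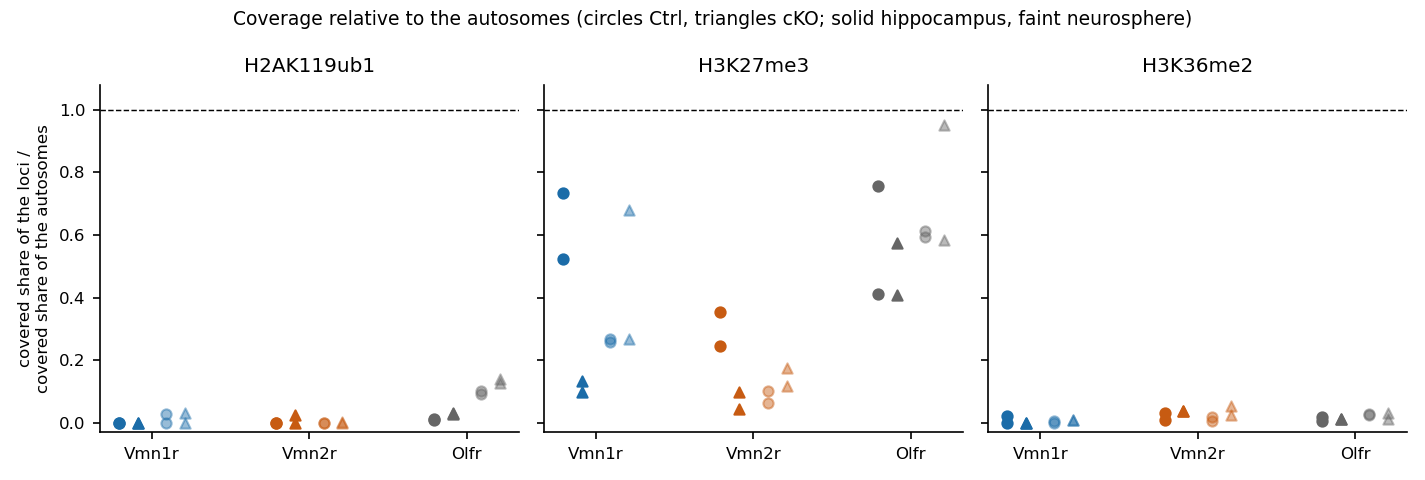
Ratio of the covered share of Vmn1r, Vmn2r and Olfr loci to that of the autosomes, 1 point per library, with circles for Ctrl, triangles for cKO, full colour for hippocampus, faint colour for neurospheres and the dashed line at a ratio of 1. All Vmn points lie below 1 for each mark, between 0.0445 and 0.733 for H3K27me3 and no higher than 0.0539 for the other marks.

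The Olfr genes, the other large family of chemosensory receptors, have CpG-poor starts too and were used as the nearest comparison. The covered share of the joined Vmn loci was below that of Olfr loci for H3K27me3, with a mean difference of -3.44 percentage points, in 7 of 8 libraries, all but Ctrl replicate 2 of hippocampus (exact sign-flip permutation test, adjusted p = 0.0234), and for H2AK119ub1, with -0.596 points, in 8 of 8 libraries (exact permutation, adjusted p = 0.0234). For H3K36me2 it was lower in 3 of 8, and the difference of -0.0314 points did not pass (exact permutation, adjusted p = 0.664). Counted by locus, 3.04% to 14.3% of members had an H3K27me3 island in a library, against 3.63% to 17.5% of Olfr loci. For H3K36me2 it was 0.608% to 4.26% against 0.266% to 2.75%, and for H2AK119ub1 0% to 0.304% against 0.177% to 3.72%. Having few islands was thus not particular to the Vmn loci. This comparison with Olfr was added after the data were seen.

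The families differed in the covered share of H3K27me3, which was larger for Vmn1r loci. In hippocampus the covered share of Vmn1r loci was 3.77% and 1.19% in Ctrl, against 0.511% and 0.895% in cKO, and that of Vmn2r loci was 1.27% and 0.808%, and 0.503% and 0.297%. In neurospheres Vmn1r stood at 2.64% and 2.69% in Ctrl and 3.41% and 7.39% in cKO, and Vmn2r at 0.647% and 1.03%, and 1.49% and 1.92%. Vmn1r was higher in 8 of 8 libraries, by 1.82 ± 1.72 points (SD, n = 8, exact sign-flip permutation test, adjusted p = 0.0234 over 3 marks, where 0.00781 is the smallest p that 8 libraries allow). The difference was 0.874 ± 1.11 points in hippocampus and 2.76 ± 1.81 points in neurospheres (n = 4 each), with no library against it over all loci. In neurospheres the clusters from Vmn1r40 to Vmn1r54 (15 genes) and from Vmn1r85 to Vmn1r89 (5 genes) were covered to 18.4% and 29.6% (means of 4 libraries). The family difference was not computed without them. Counted by gene, an island in at least 1 library was slightly more frequent in Vmn2r. It was found at 23.1% of Vmn2r and 19.7% of Vmn1r genes in hippocampus, and at 23.97% and 21.2% in neurospheres. Among loci at least 90% unique, Vmn1r was below Vmn2r in hippocampus Ctrl replicate 2 (0.583% against 0.856%) and cKO replicate 1 (0.339% against 0.563%). In the remaining libraries of both sources Vmn1r stayed higher. When the libraries of a mark and source were brought to equal covered length, the family difference in covered share was 1.21 points and did not pass.

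H3K36me2 ran the other way, at far lower levels. Vmn2r loci held 0.316 ± 0.244% and Vmn1r loci 0.0791 ± 0.0897% (SD, n = 8), with Vmn2r higher in 7 of 8 libraries (mean difference of Vmn1r minus Vmn2r -0.237 points, exact permutation, adjusted p = 0.0234). The Vmn2r share of hippocampus and of some neurosphere libraries came from 1 cluster, from Vmn2r1 to Vmn2r7 on chromosome 3. It held all 4 Vmn2r genes with an island in hippocampus. It also held the 2 in Ctrl replicate 2 and the 4 in cKO replicate 2 of neurospheres. In Ctrl replicate 1 of neurospheres, Vmn2r21 and Vmn2r22 outside the cluster had islands too. In cKO replicate 1, with 12 Vmn2r genes, those outside it included Vmn2r20, Vmn2r22, Vmn2r27, Vmn2r38 and Vmn2r46. The difference was not computed without this cluster. With islands of at least 2 kb the difference was -0.180 points and did not pass. For H2AK119ub1 the means were 0.0468% and 0.0132%, and the difference of 0.0336 points did not pass (exact permutation, adjusted p = 0.5), with 3 of 8 libraries at 0 in both families.

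Between the 2 sources, with both genotypes joined, coverage relative to the autosomes did not differ beyond the spread of the libraries for any mark or family. For H3K27me3 the Vmn1r ratio was 0.372 ± 0.307 in hippocampus and 0.369 ± 0.206 in neurospheres, and the Vmn2r ratio 0.186 ± 0.141 and 0.115 ± 0.0470 (SD, n = 4 each; exact permutation tests, adjusted p = 1 for all 6 tests of mark and family). Within genotypes the sources did lie apart for H3K27me3, in opposite orders. In Ctrl both hippocampus ratios lay above both neurosphere ratios. They were 0.733 and 0.522 against 0.258 and 0.269 for Vmn1r, and 0.246 and 0.354 against 0.0632 and 0.103 for Vmn2r. In cKO both lay below, with 0.1004 and 0.134 against 0.269 and 0.678, and 0.0987 and 0.0445 against 0.117 and 0.177. The joined means do not show these differences. The mean covered shares were higher in neurospheres, where islands covered more of the genome.

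The loci with H3K27me3 overlapped in part between sources. Of the 69 members with an island in hippocampus, 42.0% also had one in neurospheres, and of the 73 in neurospheres 39.7% had one in hippocampus, so that 29 members were shared, 40 were seen in hippocampus alone and 44 in neurospheres alone. Over all protein-coding loci these shares were 82.2% and 68.1%. Within hippocampus 49 of the 69 members had an island in only 1 of the 4 libraries, and in neurospheres 30 of the 73, so libraries of 1 source also differed in which members they marked. No member had an island in all 8 libraries. In neurospheres 9 members had an island in at least 3 libraries and none in hippocampus, and 1 member showed the reverse. Neurosphere libraries also marked more of all protein-coding loci, 37.5% against 25.8% on average. The shares of all loci with these patterns across libraries are not given, so the counts describe the members only.

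The members with an H3K27me3 island in every neurosphere library lay in few clusters, while single libraries had islands at members of many more. The 13 members covered in all 4 neurosphere libraries were Vmn1r4, Vmn1r40, Vmn1r51, Vmn1r54, Vmn1r55, Vmn1r85, Vmn1r86, Vmn1r87, Vmn1r88, Vmn2r57, Vmn2r82, Vmn2r83 and Vmn2r90. Of the 9 Vmn1r genes among them, 7 came from 2 clusters. The cluster from Vmn1r40 to Vmn1r54 (chr6:89705540-90273213, 15 Vmn1r genes over 568 kb) was covered to 12.05% and 10.32% in Ctrl and 20.4% and 30.9% in cKO neurospheres, and 13 of its 15 genes had an island. In hippocampus the same cluster was covered to 7.68%, 1.66%, 1.16% and 2.69%. The small cluster from Vmn1r85 to Vmn1r89 (chr7:13081313-13222657, 5 genes) was covered to 20.4% and 15.3% in Ctrl and 28.4% and 54.1% in cKO neurospheres, and all 5 genes had an island. Both clusters were higher in each cKO than in each Ctrl neurosphere library.

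Of the clusters of at least 4 Vmn2r genes, that from Vmn2r80 to Vmn2r83 (chr10:79146769-79495585, 4 genes) had the largest share in neurospheres, with 7.46%, 5.62%, 8.14% and 21.8% in the Ctrl and then the cKO libraries. That from Vmn2r84 to Vmn2r87 on the same chromosome followed with 6.16%, 5.67%, 10.205% and 2.11%. Here the cKO libraries lay on both sides of the Ctrl libraries.

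In hippocampus the cluster from Vmn1r85 to Vmn1r89 was covered to 12.2% and 8.21% in Ctrl and 0% and 2.97% in cKO. Single-gene loci and other small clusters reached larger shares in some libraries, up to 91.1% at Vmn2r-ps159, and the 4-gene cluster from Vmn2r114 to Vmn2r117 on chromosome 17 held 4.94%, 9.38%, 3.83% and 1.41%. Shares were also found in 4 adjoining clusters of chromosome 7, between positions 20097680 and 23253682. The cluster from Vmn1r91 to Vmn1r95 (4 genes) was covered to 18.8% and 9.30% in Ctrl and to 0% and 0% in cKO hippocampus. The cluster from Vmn1r100 to Vmn1r132 (chr7:20415942-21616985, 27 genes) held 8.94% and 6.18% in Ctrl and 3.41% and 0% in cKO. The cluster from Vmn1r135 to Vmn1r143 held 5.06%, 3.56%, 0.608% and 0%. The cluster from Vmn1r148 to Vmn1r166 (chr7:22411583-23253682, 12 genes) held 14.3% and 8.79% in Ctrl and 6.79% and 0% in cKO. In these last 4 clusters both cKO libraries lay below both Ctrl libraries, and cKO replicate 2 had no island at all.

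These 4 clusters were poor in unique sequence. Of the words of their loci, 23.4%, 33.4%, 0.528% and 23.6% occurred once in the genome, against 96.0% in the cluster from Vmn1r40 to Vmn1r54 and 97.2% in that from Vmn1r85 to Vmn1r89. In neurospheres the same 4 clusters were covered to between 0% and 4.20%. The part of read placement in the hippocampal islands was not tested.

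**Figure D3:**
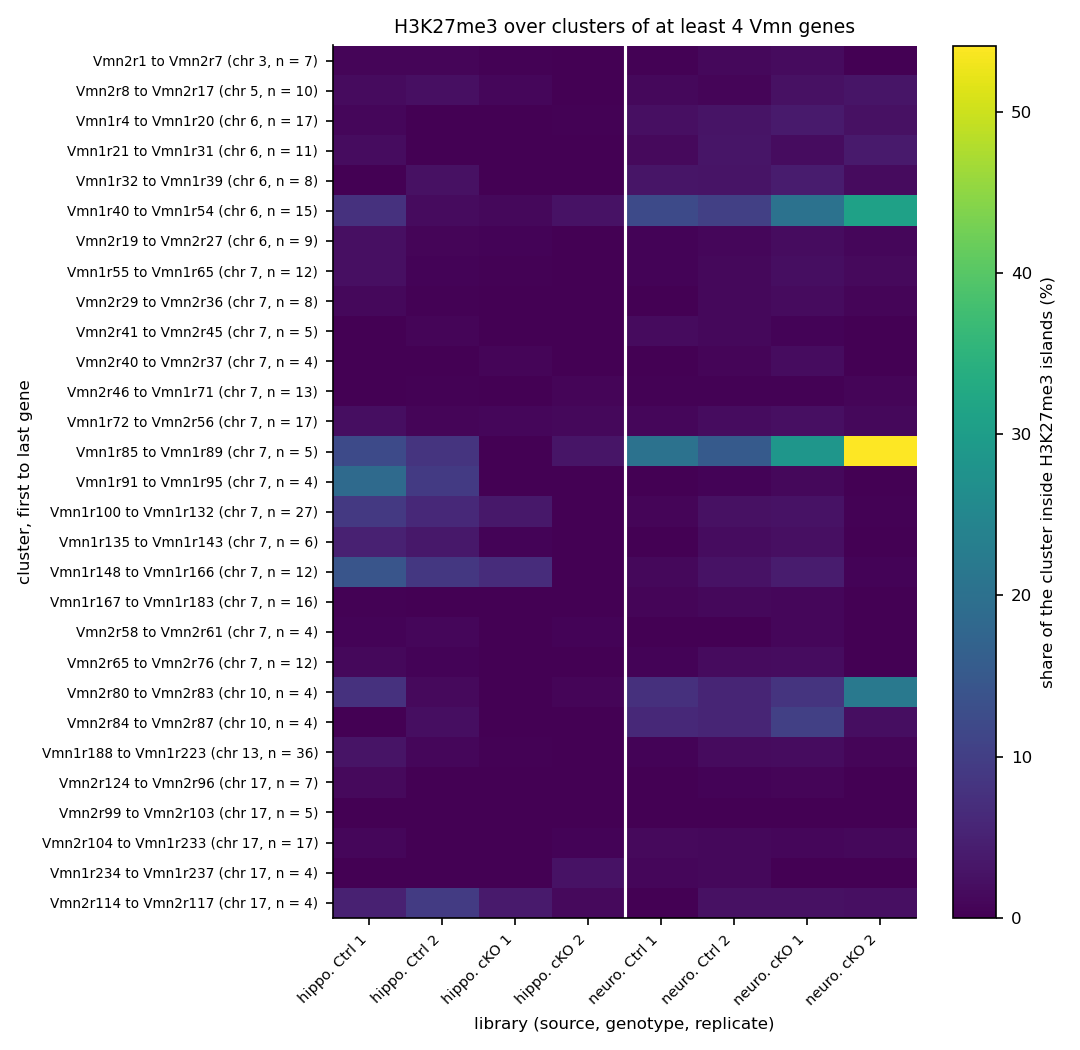
Share of each cluster of at least 4 genes inside H3K27me3 islands, in percent by colour, with 1 column per library and 1 row per cluster, named by its first and last gene. The brightest cells are the clusters from Vmn1r40 to Vmn1r54 and from Vmn1r85 to Vmn1r89 in neurospheres, up to 54.1%, while 4 adjoining clusters from Vmn1r91 to Vmn1r166 show in the hippocampus Ctrl libraries, up to 18.8%.

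Among the other clusters of at least 10 genes, H3K27me3 was sparse. The largest, from Vmn1r188 to Vmn1r223 (chr13:22082440-23255906, 36 Vmn1r genes over 1173 kb), was covered to at most 2.86% in any library, and 2 of its genes had an island in hippocampus and 6 in neurospheres. The clusters from Vmn1r4 to Vmn1r20 (17 genes) and from Vmn1r21 to Vmn1r31 (11 genes) on chromosome 6 reached at most 3.82% and 3.96%, both in neurospheres. That from Vmn2r8 to Vmn2r17 on chromosome 5 (10 genes) reached 3.07%. On chromosome 7 the clusters from Vmn1r55 to Vmn1r65 (12 genes), from Vmn2r46 to Vmn1r71 (13 genes), from Vmn1r72 to Vmn2r56 (17 genes), from Vmn1r167 to Vmn1r183 (16 genes) and from Vmn2r65 to Vmn2r76 (12 genes) reached at most 2.30%, 0.792%, 2.29%, 1.10% and 1.87%. The mixed cluster from Vmn2r104 to Vmn1r233 on chromosome 17 (17 genes) reached 1.30%. The cluster from Vmn2r99 to Vmn2r103 (5 genes) had no island of any mark in any of the 24 libraries.

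H3K27me3 was more frequent at the outer genes of clusters in neurospheres. Of the 83 genes that stand first or last in a cluster or alone, 34 (41.0%) had an island in neurospheres and 8 (9.64%) had one in all 4 libraries, against 39 (15.9%) and 5 (2.03%) of the 246 inner genes. The mean share of the outer genes was 2.86%, 3.47%, 4.29% and 8.09% in the 4 neurosphere libraries and that of the inner genes 0.817%, 0.849%, 1.46% and 2.72%, so it was higher in 4 of 4. In hippocampus 24 outer (28.9%) and 45 inner genes (18.3%) had an island. Outer genes lay a median of 50.4 kb and inner genes 151 kb from the nearest protein-coding gene of another kind. These counts are given as a description, since genes of a cluster are not independent.

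Within loci, no position was highest in every library for Vmn1r. In neurospheres the bodies of Vmn1r genes were covered to 4.42%, the 2 kb upstream to 2.68% and the 2 kb downstream to 3.82% (means of 4 libraries), and those of Vmn2r genes to 1.13%, 1.83% and 2.80%. The highest Vmn1r values were those of cKO replicate 2, with 8.51% over the bodies, while in Ctrl replicate 2 and cKO replicate 1 the downstream flank, with 3.90% and 3.89%, exceeded the bodies, with 2.62% and 3.55%. In hippocampus the means were 1.54%, 1.30% and 2.11% for Vmn1r and 0.669%, 1.03% and 1.13% for Vmn2r, in the same order. Over whole clusters the loci were covered to 2.27% and the sequence between them to 2.19%, while in hippocampus the loci held 1.03% and the sequence between them 1.69%. An H3K27me3 island lay over the start of 30 members in at least 1 library, an H2AK119ub1 island over 1 and an H3K36me2 island over 1. The shares of all protein-coding starts under islands are not given, so these counts describe the members only.

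The H3K27me3 islands at Vmn loci were narrower than the median island of each library, and in read density they lay close to it. In hippocampus 51 and 25 H3K27me3 islands overlapped members in Ctrl, against 11 and 18 in cKO. Their median widths were 3.4, 2.8, 3 and 2.1 kb, against 3.8, 3.2, 3.8 and 2.8 kb over all islands, and their median counts per kb were 27.9, 21.7, 42.5 and 23.1 reads, against 30, 25, 40 and 26.4. In neurospheres 56, 73, 63 and 57 islands overlapped members, with median widths of 1.7, 1.4, 2.6 and 4.2 kb against 3, 2.4, 3.6 and 5.4 kb. The median counts per kb of these islands, 47.2, 40.0, 35.0 and 30.9 reads, lay beside 45.2, 39.9, 35.0 and 33.3 over all islands. The 3 widest in neurospheres were all in cKO replicate 2 and measured 24.8 kb at Vmn1r54 (1074 reads), 22 kb over Vmn1r86 and Vmn1r87 (729 reads) and 19.0 kb at Vmn1r51 (606 reads). That library also had the widest islands of the 4 in general.

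Between genotypes, H3K27me3 at Vmn loci differed in opposite directions in tissue and in culture. In hippocampus the difference of cKO minus Ctrl was -1.78 points in Vmn1r (0.703 ± 0.272% against 2.48 ± 1.83%) and -0.637 points in Vmn2r (0.400 ± 0.146% against 1.04 ± 0.324%; SD, n = 2). In neurospheres it was 2.74 points in Vmn1r (5.40 ± 2.81% against 2.66 ± 0.0347%) and 0.867 points in Vmn2r (1.70 ± 0.310% against 0.838 ± 0.270%). In each of the 4 comparisons both cKO libraries lay on 1 side of both Ctrl libraries. No difference can pass the test, since 2 against 2 libraries cannot go below an exact permutation p of 0.333 (adjusted p = 0.667 over 12 tests).

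The hippocampal libraries did not share this order genome-wide. Their autosomes were covered to 5.15% and 2.28% in Ctrl and to 5.09% and 6.66% in cKO, so the cKO mean was higher. Divided by the autosomal share, the Vmn1r ratio was 0.733 and 0.522 in Ctrl, against 0.1004 and 0.134 in cKO, and the Vmn2r ratio 0.246 and 0.354 in Ctrl and 0.0987 and 0.0445 in cKO. The order was thus the same after this division. The division does not make the libraries equal in depth, and the cause of the order was not tested. In neurospheres the Vmn1r ratio was 0.258 and 0.269 in Ctrl, against 0.269 and 0.678 in cKO, so there the excess lay in cKO replicate 2. Without that library the Vmn1r difference in covered share was 0.749 points, and in hippocampus it was -0.487 points without Ctrl replicate 1. Without the clusters from Vmn1r40 to Vmn1r54 and from Vmn1r85 to Vmn1r89, a setting chosen after the data were seen, it was 0.569 points in neurospheres and -1.51 points in hippocampus.

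Members whose sequence was at least 90% unique, 145 Vmn1r and 82 Vmn2r, gave the same directions, with 1 loss of separation. In hippocampus these Vmn1r loci were covered to 3.31% and 0.583% in Ctrl and 0.339% and 1.00% in cKO, so the genotypes overlapped, and the remaining 63 Vmn1r loci to 5.98%, 4.10%, 1.34% and 0.395%, where they did not. In neurospheres the unique Vmn1r loci held 3.17%, 3.14%, 3.67% and 8.72%, and the others 0.104%, 0.540%, 2.15% and 0.986%. The unique Vmn2r loci held 1.32%, 0.856%, 0.563% and 0.227% in hippocampus, and 0.685%, 0.850%, 1.36% and 2.41% in neurospheres.

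**Figure D4:**
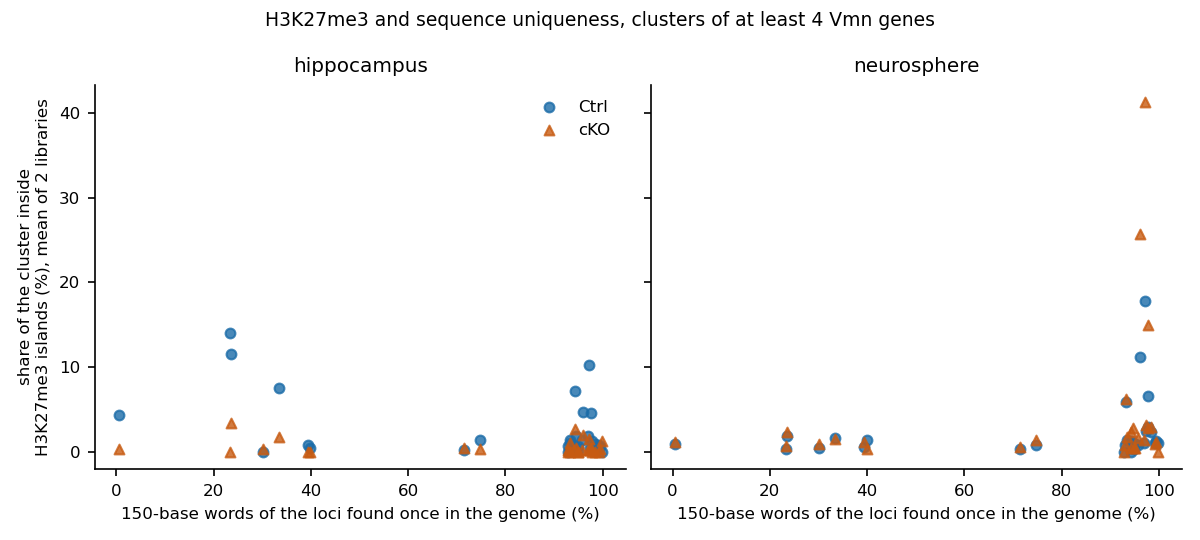
Share of each cluster of at least 4 genes inside H3K27me3 islands (mean of 2 libraries, in percent) against the percentage of 150-base words of its loci that occur once in the genome, with blue circles for Ctrl and orange triangles for cKO. In hippocampus the 2 highest Ctrl points lie at clusters with 23.4% and 23.6% unique words, and in neurospheres the highest points of both genotypes lie at the cluster from Vmn1r85 to Vmn1r89, with 97.2%.

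Counted by gene, few members had islands in both libraries of 1 genotype and in neither of the other. In hippocampus 5 members had an H3K27me3 island in both Ctrl and no cKO library, namely Vmn2r9, Vmn1r86, Vmn1r94, Vmn1r143 and Vmn1r163, which is 1.52% of members against 0.433% of all protein-coding loci. The reverse was seen for 0 members, against 2.73% of all loci. Lower shares in both cKO than in both Ctrl libraries were seen for 6 members (1.82%, against 1.25% of all loci) and higher ones for 0 (against 8.54%). Leaving out 1 library loosens these patterns and can only keep or raise the counts, so it cannot show how far they rest on single libraries.

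In neurospheres 3 members, Vmn1r42, Vmn1r43 and Vmn2r112, had an H3K27me3 island in both Ctrl and no cKO library (0.912%, against 1.61% of all loci). Vmn1r42 and Vmn1r43 overlap, so they share an island. The reverse was seen for 4 members, Vmn1r50, Vmn2r85, Vmn1r221 and Vmn2r117 (1.22%, against 1.2%). Higher shares in both cKO libraries were seen for 14 members (4.26%, against 8.27% of all loci) and lower ones for 3 (0.912%, against 7.65%). None of these 4 shares of members stood clearly above that of all loci. Here too, leaving out 1 library could only keep or raise these counts.

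For H2AK119ub1 no member met either pattern in either source. The backgrounds were 0.332% and 1.18% of all loci in hippocampus, for islands in Ctrl alone and in cKO alone, and 1.17% and 2.35% in neurospheres. For H3K36me2, Vmn2r4 was the only member, with islands in both cKO and no Ctrl hippocampus library (0.304%, against 1.36% of all loci). The reverse in hippocampus had 0 members against 1.1%, and in neurospheres both patterns had 0, against 0.577% and 1.27%.

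Among single loci, Vmn1r40 (chr6:89707540-89716657, plus strand), whose start is printed above, had the highest mean H3K27me3 share in neurospheres. Its locus was covered to 45.7% and 21.3% in Ctrl and 52.3% and 87.8% in cKO neurospheres, and among members whose genotypes did not overlap it also had the largest excess of cKO over Ctrl, 36.5 points. In hippocampus it was covered to 27.4% in Ctrl replicate 1, 8.09% in cKO replicate 2 and 0% in the other two. Vmn1r54 (chr6:90246300-90271213), at the far end of the same cluster, was covered to 40.1% and 32.5% in Ctrl and 38.8% and 93.8% in cKO neurospheres, so its genotypes overlapped. Vmn1r87 (chr7:13130904-13140157) was covered to 22.6% and 29.9% in Ctrl and 33.2% and 88.3% in cKO. All 3 loci were made of unique words throughout.

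In the other direction the largest difference without overlap in neurospheres was small. Vmn2r112 (chr17:22600951-22620842) was covered to 6.87% and 5.86% in Ctrl and 0% and 0% in cKO. In hippocampus the largest was at Vmn1r163 (chr7:23055540-23056463), which was covered to 58.1% and 46.0% in Ctrl and 0% and 0% in cKO, by islands of 30.3 and 21.7 reads per kb. None of the words of that locus was unique. Vmn1r158 of the same cluster was covered to 28.1% in Ctrl replicate 1 and 55.7% in cKO replicate 1 and to 0% in the other two libraries, so it did not follow genotype. No member in hippocampus was higher in both cKO libraries.

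Vmn2r-ps159 (chr4:156331103-156339499) was the only member with H3K27me3 in all 4 hippocampus libraries. It was covered to 46.8% and 50.01% in Ctrl and 91.1% and 24.2% in cKO, and its start lay in an island in the first 3 of these libraries. In neurospheres it held 9.66% and 0% in Ctrl and 37.1% and 42.7% in cKO. Among the 5 members with islands in the hippocampus Ctrl libraries alone, those of mostly unique sequence were Vmn2r9 and Vmn1r86. Vmn2r9 was covered to 13.1% and 28.1% in Ctrl and Vmn1r86 to 33.8% and 15.4%, both against 0% in the cKO libraries. Vmn1r86 had islands in all 4 neurosphere libraries (18.2%, 4.55%, 15.9% and 78.5%).

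**Figure D5:**
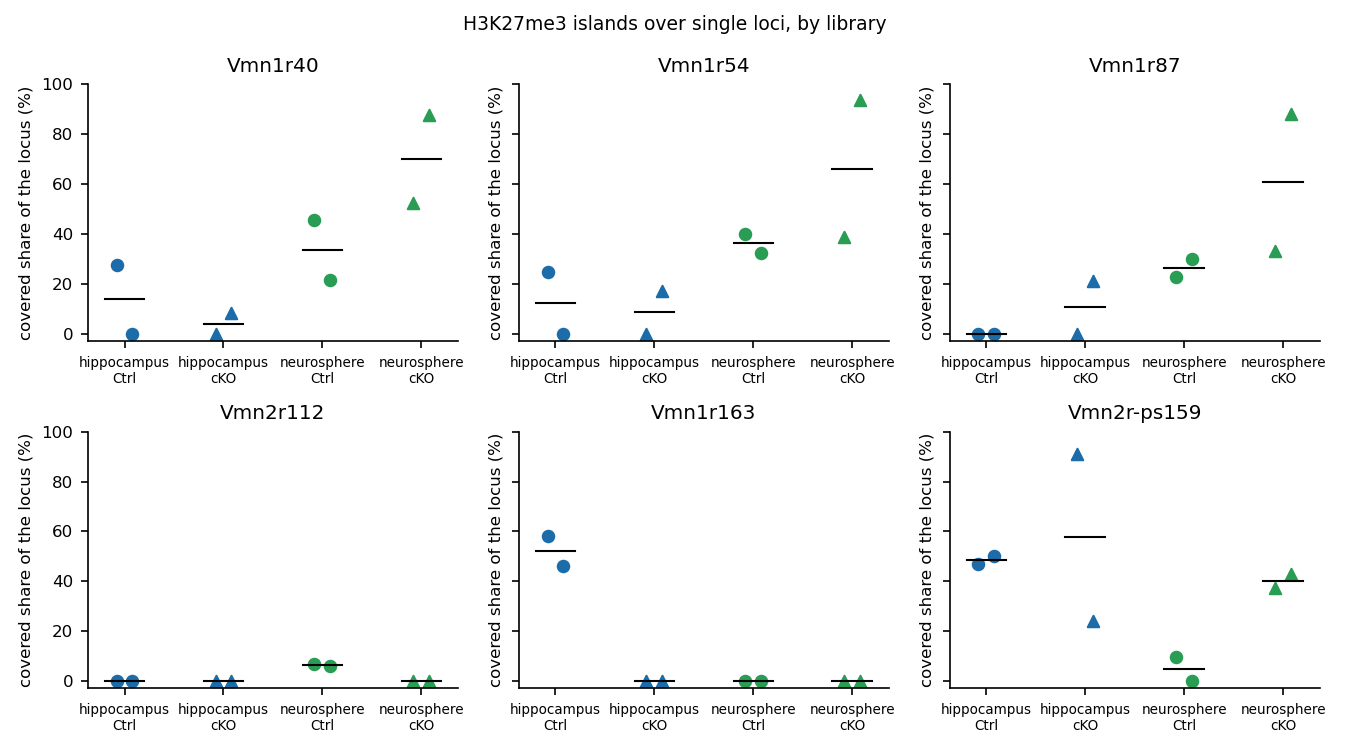
H3K27me3 covered share in percent of 6 single loci, 1 point per library by source and genotype, with circles for Ctrl, triangles for cKO and the line at the mean of 2 libraries. Vmn1r40, Vmn1r54 and Vmn1r87 reach 87.8%, 93.8% and 88.3% in 1 cKO neurosphere library, Vmn1r163 shows islands in the hippocampus Ctrl libraries alone, Vmn2r112 in the neurosphere Ctrl libraries alone, and Vmn2r-ps159 in 7 of the 8 libraries.

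H2AK119ub1, the mark of the complex that KDM2B belongs to, was found at 4 members and at none of them in more than 2 libraries. Vmn1r54 had an island of 3.2 kb (28.8 reads per kb) in Ctrl replicate 2 and of 5.6 kb (27.3 reads per kb) in cKO replicate 1 of neurospheres, covering 11.1% and 19.4% of its locus. Vmn2r83 was covered to 6.88% in cKO replicate 2 and Vmn2r87 to 2.64% in Ctrl replicate 1. In hippocampus the only island was one of 1.6 kb at Vmn2r115 in cKO replicate 1, with 52 reads. In each neurosphere library exactly 1 member (0.304%) had an island, while 27.7% to 53.2% of all protein-coding loci had one. The genotype differences of the covered share were 0 and 0.0192 points in hippocampus and 0.0510 and 0.0142 points in neurospheres, for Vmn1r and Vmn2r (exact permutation, adjusted p = 1 for all 4).

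Of the 17 members with an H3K36me2 island, 4 had one in at least 3 of the 8 libraries, and these came from 2 places. Vmn1r1, which stands alone on chromosome 1 (chr1:182154704-182164486), was covered to 0% and 22.5% in Ctrl and 26.8% and 21.8% in cKO neurospheres, and to 25.4% in Ctrl replicate 1 of hippocampus alone. The other place was the cluster from Vmn2r1 to Vmn2r7 (chr3:64079547-64846765, 7 genes), where 6 of the 7 genes had an island in some library. Vmn2r4 (chr3:64383044-64415368) was covered in all 4 neurosphere libraries, to 4.40% and 13.8% in Ctrl and 4.40% and 23.1% in cKO, and in hippocampus to 0% and 0% in Ctrl and 9.36% and 7.71% in cKO. Vmn2r7 was covered to 0.611%, 6.35%, 3.42% and 12.9% in neurospheres. Vmn2r2 in hippocampus was covered to 8.48% in Ctrl replicate 1 and 14.4% in cKO replicate 2 only.

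Vmn2r loci were covered by H3K36me2 to 0.0625% and 0.149% in Ctrl and 0.255% and 0.260% in cKO hippocampus, and to 0.106% and 0.370% in Ctrl and 0.539% and 0.785% in cKO neurospheres. The genotypes did not overlap in either source, and the cKO means were higher by 0.151 and 0.424 points (exact permutation, p = 0.333 and adjusted p = 0.667 for each). In hippocampus all of this Vmn2r coverage lay in the cluster from Vmn2r1 to Vmn2r7. Vmn1r loci were at 0% in both cKO hippocampus libraries and at 0.149% and 0% in Ctrl, and in neurospheres at 0% and 0.132% in Ctrl and 0.225% and 0.128% in cKO. The most members with an island, 14 of 329 (4.26%), were in cKO replicate 1 of neurospheres, in which 70.1% of all loci had one.

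The read counts could be compared only where a region was called in all 4 libraries of a mark and source, which held for 1 merged region at members in hippocampus and 16 in neurospheres for H3K27me3, 1 in neurospheres for H3K36me2 and 0 in the other 3 sets. In the quasi-likelihood test of edgeR, with p-values adjusted after Benjamini and Hochberg, 0 of these 18 regions passed 0.05. Nor did any of all tested regions, 0% of 2727 and 6046 for H2AK119ub1, 0% of 4413 and 11217 for H3K27me3 and 0% of 6335 and 34635 for H3K36me2, each in hippocampus and then in neurospheres. At an unadjusted p under 0.05 there were 3 of the 16 H3K27me3 regions in neurospheres and 0 of the other 2, and 2176 of all 11217. DESeq2 called 2 of the 16, 1 that overlaps the Vmn1r51 locus and 1 that reaches the Vmn1r53 locus in a single library, and 766 of all 11217, and it called 0 of the other 2. Without cKO replicate 1 of neurospheres, edgeR called 3 of the 16 and 2413 of all 11217.

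Both regions lie in the cluster from Vmn1r40 to Vmn1r54, and their counts are sums over islands of unequal length, so the ratios of these sums are not changes of signal per base. The region reaching Vmn1r53 (chr6:90183401-90227200) held 308 and 96 reads in Ctrl and 547 and 1304 in cKO, inside 7.4, 2.2, 17.8 and 38.4 kb of islands. The Vmn1r53 locus itself was covered to 100% in cKO replicate 2 and to 0% in the other 3 libraries, whose islands lay outside it and were merged with those of cKO replicate 2 into 1 region. The log2 ratio of the sums of cKO over Ctrl was 2.27 (edgeR adjusted p = 0.171, DESeq2 adjusted p = 0.00215). Per kb of island the region held 41.6 and 43.6 reads in Ctrl and 30.7 and 34.0 in cKO, so the density was lower in both cKO libraries while the sum was higher. Over all islands of these libraries the median density was 45.2 and 39.9 reads per kb in Ctrl and 35 and 33.3 in cKO. The region at Vmn1r51 (chr6:90126201-90145400) held 98 and 86 reads in Ctrl and 182 and 606 in cKO, inside 1.6, 1.4, 4.2 and 19 kb, with a log2 ratio of 2.06 (edgeR adjusted p = 0.197, DESeq2 adjusted p = 0.0162). Its density was 61.3 and 61.4 reads per kb in Ctrl and 43.3 and 31.9 in cKO. At Vmn2r-ps159 in hippocampus Ctrl had 227 and 195 reads and cKO had 796 and 66, with a log2 ratio of 0.16 (edgeR adjusted p = 0.992), and at Vmn2r4 for H3K36me2 in neurospheres Ctrl had 59 and 93 and cKO 59 and 78, with a log2 ratio of 0.29 (edgeR adjusted p = 0.962). Of the 16 neurosphere regions 14 had a positive log2 ratio of summed counts, between 0.23 and 2.27, and those at Vmn1r233 (-0.77) and 1 of 2 at Vmn1r85 (-0.13) a negative one.

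Other genes of vomeronasal neurons were also examined. Of 21 such genes, all autosomal, 8 had an H2AK119ub1 island in hippocampus and 13 in neurospheres in at least 1 library, 10 and 12 had one of H3K27me3, and 5 and 12 one of H3K36me2. These are 38.1%, 61.9%, 47.6%, 57.1%, 23.8% and 57.1% of the list, against 45.01%, 64.8%, 42.8%, 51.7%, 37.5% and 73.2% of all protein-coding loci, so the counts show nothing particular to these genes. Tfap2e, a transcription factor of basal vomeronasal neurons, had H3K27me3 over its locus in all 8 libraries, between 36.5% and 76.9%. Gnao1 was covered to between 11.4% and 21.4% by H3K27me3 in all 4 neurosphere libraries and had an island in 1 hippocampus library. In neurospheres its coverage by the other marks was larger, 39.4% to 74.9% for H2AK119ub1 and 31.8% to 79.2% for H3K36me2. Gnai2 had no H3K27me3 island in any library. Meis2 had one in all 4 hippocampus libraries and in no neurosphere library. Trpc2, the cation channel of these neurons, had an H3K27me3 island in 1 hippocampus library and in no neurosphere library. The class I genes H2-M10.4, H2-M10.5 and H2-M10.6, expressed with Vmn2r receptors, had H3K27me3 islands in all 4 neurosphere libraries. H2-M9, H2-M10.1 and H2-M10.2 had them in 3 each, and H2-M10.3 in none. The vomeronasal formyl peptide receptors Fpr-rs3, Fpr-rs4, Fpr-rs6 and Fpr-rs7, like most receptor loci, had no island of any mark in the 24 libraries, and neither had H2-M1.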

How the data were processed

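Chromatin from hippocampus and neurospheres was profiled by ChIP-seq for H2AK119ub1, H3K27me3 and H3K36me2. The authors trimmed reads with cutadapt, aligned them to mm10 with Bowtie2 (2.4.5 per the labels), removed duplicates and called islands in each library against input with SICER (window 200 bp, gap 600 bp, FDR 0.01). The deposited files list islands with a raw read count each. The columns of each file belong to 1 sample. The handling of reads that map to several places is not given in the sources used here.

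From these files, genes were taken from GENCODE vM21 and islands were intersected with each locus (Python 3.11.15, numpy 2.4.6, matplotlib 3.10.9). Uniqueness was the share of 150-base words, sampled every 100 bases in member and Olfr loci and every 5000 bases in other loci, that occurred once in GRCm38.p6 on either strand. Covered shares were compared by 2-sided exact permutation over libraries, with Benjamini-Hochberg adjustment and a threshold of 0.05. Genotypes were compared within mark and source, families by sign flips within libraries, sources by the ratio to the autosomal share, and marks by that ratio within source. Counts were summed over merged regions that every library of a mark and source had called and tested with edgeR 4.0.16 (quasi-likelihood, TMM) in R 4.3.3, with DESeq2 1.42.0 as an alternative. The scripts were tested on simulated data. Other alternatives were the gene body alone, wider islands, equal covered length, single sources, leaving out each library and a replicate block.

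For each mark and source, the genes named were the 3 with the highest mean covered share and those with the largest difference in either direction among loci whose genotypes did not overlap, and every cluster of at least 10 genes was described. Other genes and clusters were named after their values were seen. The members and lists were chosen with earlier results of these data known. Depth is known only inside islands, and the 12 inputs were not used here.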

Additional observations from a re-analysis of the deposited data

Results flagged for a closer look

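H3K27me3 at vomeronasal receptor loci differed between cKO and Ctrl in opposite directions in the 2 sources. In hippocampus the difference in covered share was -1.78 percentage points for Vmn1r and -0.637 points for Vmn2r, and both cKO libraries lay below both Ctrl libraries. In neurospheres it was 2.74 points for Vmn1r and 0.867 points for Vmn2r, and neither cKO library overlapped the Ctrl range. The difference between the sources was not tested independently of this separation. An exact permutation of the genotype labels within each source, over 36 splits, was run after the separation had been seen, which fixes its p at the smallest these splits allow, 0.0556, for each family, so it adds no support. With shares divided by the autosomal share, the neurosphere genotypes overlapped for Vmn1r, and the exact permutation p was 0.111 for Vmn1r and 0.0556 for Vmn2r.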

How the results depend on the processing

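Of 481 values under alternatives, 415 kept their direction and side of the threshold or, for counts, stayed equal or close. A further 3 no longer passed, 28 reversed and 35 moved. The 415 include values that could not change sides, since genotype comparisons of covered share cannot pass and replicate-block differences are identical by construction. The tally is thus no measure of robustness. With the gene body alone, the genotype difference of Vmn2r in neurosphere H2AK119ub1 was -0.0109 points and the source difference of Vmn1r in H3K27me3 was 0.0701. With islands of at least 2 kb, the hippocampus H2AK119ub1 difference of Vmn2r was 0, the source differences were 0.000934 (Vmn2r, H2AK119ub1) and -0.00119 (Vmn1r, H3K36me2), the family difference in H3K36me2 was -0.180 and no member had neurosphere H3K27me3 in Ctrl alone (0). At equal covered length, the genotype differences in neurosphere H2AK119ub1 were -0.0680 (Vmn1r) and -0.00962 (Vmn2r), that of Vmn1r in hippocampus H3K36me2 was 0, the family difference in H3K27me3 was 1.21, and the counts were 1 (hippocampus H3K27me3, Ctrl alone), 2 (neurosphere H3K27me3, cKO alone) and 0 (hippocampus H3K36me2, cKO alone). With loci at least 90% unique, added after the data were seen, the source difference of Vmn1r in H3K27me3 was 0.149. In Ctrl libraries alone the source differences were 0.000723 (Vmn2r, H2AK119ub1) and -0.00741 (Vmn1r, H3K36me2). In hippocampus alone, H3K36me2 minus H2AK119ub1 was 0.00553 for Vmn1r and 0.0237 for Vmn2r. When islands had to cover at least 50% of a locus, the H3K27me3 counts were 0 in hippocampus Ctrl alone, 0 in neurosphere Ctrl alone and 1 in neurosphere cKO alone, and that of hippocampus H3K36me2 in cKO alone was 0. DESeq2 called 2 member regions in neurosphere H3K27me3. The causes were not tested. With 1 library left out, genotype differences ranged from 0 to 0.0385 (Vmn2r, hippocampus H2AK119ub1), -0.0680 to 0.170 (Vmn1r, neurosphere H2AK119ub1), -0.00962 to 0.0381 (Vmn2r, neurosphere H2AK119ub1) and -0.149 to 0 (Vmn1r, hippocampus H3K36me2). Source differences ranged from -0.107 to 0.116 (Vmn1r, H3K27me3), -0.000639 to 0.00674 (Vmn1r, H3K36me2), -0.00694 to 0.00129 (Vmn2r, H2AK119ub1) and -0.0120 to 0.00365 (Vmn2r, H3K36me2), and H3K36me2 minus H2AK119ub1 for Vmn1r from -0.00424 to 0.00146. Counts of members with islands in 1 genotype alone can only stay or rise when a library is left out, since the pattern is loosened. The matching shares of all loci are not given. Members with islands in Ctrl alone ranged from 6 to 29 and in cKO alone from 0 to 8 in hippocampus H3K27me3, from 6 to 16 and from 6 to 13 in neurosphere H3K27me3, from 0 to 1 and from 1 to 2 in hippocampus H3K36me2, from 0 to 1 and from 0 to 10 in neurosphere H3K36me2, and from 0 to 1 in each direction in neurosphere H2AK119ub1, while in hippocampus H2AK119ub1 they ranged from 0 to 1 in cKO alone. Member regions called in neurosphere H3K27me3 ranged from 0 to 3. Equal replicate numbers were not taken to pair the libraries, since the labels do not tie them and the deviations of same-numbered libraries correlated at between -0.326 and 0.319. With a replicate block the differences in covered share are identical by construction, 2 pairs allow no sign-flip p under 0.5, and 0 member regions were called in each mark and source. A crossed pairing, for neurosphere H2AK119ub1 and H3K27me3, called 0 of 6046 and 1 of 11217 regions, and 0 member regions. Depth outside islands is unknown, so a mark too weak for an island was not detectable, and 2 libraries a group limit every genotype comparison.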
